A study of Mus musculus with 21 samples.

Results

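The genes described here are the 5 isocitrate dehydrogenase genes Idh1, Idh2, Idh3a, Idh3b and Idh3g, with Ogdh, which encodes an enzyme that uses their product, and D2hgdh, which encodes an enzyme that removes D-2-hydroxyglutarate. They were chosen by gene symbol, 7 of the 54532 genes in the deposited table, and all 7 were among the 13379 genes that passed the filter on low values. Messenger RNA was sequenced in 7 lines of mouse glioma stem-like cells, with 3 libraries per line and 21 in all. The lines came from brain tumours of genetically engineered mice and were grown without attachment in a neural stem cell medium with EGF, bFGF and heparin at 5% oxygen and 5% carbon dioxide. Lines PIC144-1, PIC144-3, PIC496-3 and PIC496-4 are labelled IDH1 mutant, and lines PC134-0, PC308-1 and PC326-1 are labelled IDH1 WT. The labels name no treatment.

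The labels give neither the IDH1 allele nor its promoter, and they do not say whether it sits at the mouse Idh1 locus or is an added copy. They also leave out the other alterations of the tumours, the age and sex of the animals and the passage. Whether the lines with a common number, the PIC144 pair and the PIC496 pair, were taken from 1 animal each is not stated. FPKM, fragment counts scaled to gene length and library size, do not show which allele an RNA came from, so the level of Idh1 checks nothing about the genotype labels. An added copy could contribute fragments to the Idh1 value, and this cannot be told apart here from RNA of the mouse gene.

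Isocitrate dehydrogenases oxidise isocitrate to 2-oxoglutarate. The enzyme of Idh1 works in the cytosol and peroxisomes and that of Idh2 in mitochondria, both with NADP, while Idh3a, Idh3b and Idh3g encode the subunits of the NAD-linked enzyme of the citric acid cycle. Tumour mutants of IDH1, frequent in diffuse glioma, reduce 2-oxoglutarate to D-2-hydroxyglutarate, which the mitochondrial enzyme of D2hgdh turns back into 2-oxoglutarate. Ogdh encodes the subunit of the 2-oxoglutarate dehydrogenase complex that acts on 2-oxoglutarate first.

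By line means, Idh1 and Idh3g were the 2 of these genes whose IDH1 mutant lines all lay above the IDH1 WT lines, as did 6.82% of all tested genes. Single libraries of Idh3g overlapped. Both genes start head to head with another gene. The DNA between the starts is shown for that reason, from RefSeq promoters on build GRCm38.p6, on the minus strand from which Idh1 and Idh3g are read. The Idh1 stretch, chr1:65186501-65186682, lies between the first exon of Idh1 and that of Pikfyve, a lipid kinase gene, whose annotated starts are 183 bases apart. The Idh3g stretch, chrX:73786898-73787027, lies between Idh3g and Ssr4, a gene of the translocon-associated protein complex, with starts 131 bases apart. RefSeq also lists an Idh1 start inside the gene, which is not shown. Capitals mark matches to the motifs searched.
Idh1: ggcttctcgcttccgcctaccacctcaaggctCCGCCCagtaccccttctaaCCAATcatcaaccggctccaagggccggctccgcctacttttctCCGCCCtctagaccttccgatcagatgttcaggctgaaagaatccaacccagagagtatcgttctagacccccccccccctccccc
Idh3g: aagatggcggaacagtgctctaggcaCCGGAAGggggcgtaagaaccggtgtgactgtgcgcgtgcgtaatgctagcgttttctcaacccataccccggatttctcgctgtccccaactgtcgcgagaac
Both strands of each stretch were searched for 5 common promoter motifs. The first was CCAAT, with 1 match in the Idh1 stretch, and 33.85% of 32851 RefSeq windows of 250 bases before a start held it. The GC box was searched as GGGCGG, with 2 matches in the Idh1 stretch, both read there as the reverse complement, and it was in 32.74% of the windows. The core bound by ETS factors was searched as CCGGAAG, with 1 match in the Idh3g stretch, and it was in 6.907% of the windows. The TATA box, spelled TATAAA for this search, and the E-box, spelled CACGTG for this search, had no match in either stretch, against 12.37% and 6.021% of the windows. The stretches of Idh1 and Idh3g are 182 and 130 bases long, shorter than the windows, so the shares of windows are not rates for stretches of their length. A match describes letters only.

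Whole fragments could be recovered from the deposited FPKM and gave 15011668 to 21966351 fragments per library. Replicate 2 of PIC496-4 stood apart from replicates 1 and 3 of that line, with a chi-square per gene of 26.9 and 22.8 against 4.17 between these, where the other lines gave 3.79 to 15.7. Without it the genotype difference of each of the 7 genes kept its sign and its side of the threshold, and 16 genes of the table passed, as with it. Markers of glioma stem-like and glial progenitor cells were present, all 10 at 1 FPKM or more in at least 1 line, among them Sox2 at 103.5 to 227.8 FPKM and Olig2 at 199.3 to 419.2 FPKM. Their summed level was 1582 to 2664 FPKM for the mutant genotype and 1676 to 2153 FPKM for WT. The 7 astrocyte markers summed to 237.5 to 418.7 and 267.7 to 366.4 FPKM, mostly from Aldoc, with Gfap at 0.0612 to 0.186 FPKM. Summed markers of mature oligodendrocytes, T and B cells, endothelium and red cells reached at most 2.41, 0.0461, 0.859 and 1.16 FPKM in any line. Those of neurons reached 8.51, those of microglia and macrophages 6.43 and those of fibroblasts and pericytes 15.2 FPKM. In bulk RNA, fewer cells of a type and less RNA per cell cannot be told apart.

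By FPKM, which are per length, the genes fell into 3 tiers that held in each of the 7 lines. The length used is that of all annotated exons of a gene, and the RNA present may hold only part of these. Levels and ratios of different genes are therefore rough comparisons. Idh1, at 79.8 to 133.7 FPKM as the mean of a line, and Idh2, at 52.8 to 119.4 FPKM, were the most abundant. Idh3a (23.0 to 44.1 FPKM), Idh3b (27.1 to 57.0 FPKM), Idh3g (28.5 to 54.5 FPKM) and Ogdh (27.8 to 40.9 FPKM) lay below both. D2hgdh was far lower, at 1.03 to 2.78 FPKM, with 64 to 243 fragments per library against 3509 to 7199 for Idh1. The range over the 7 lines was narrowest for Ogdh, with the highest line at 1.47 times the lowest, and widest for D2hgdh, at 2.70 times.

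**Figure D1:**
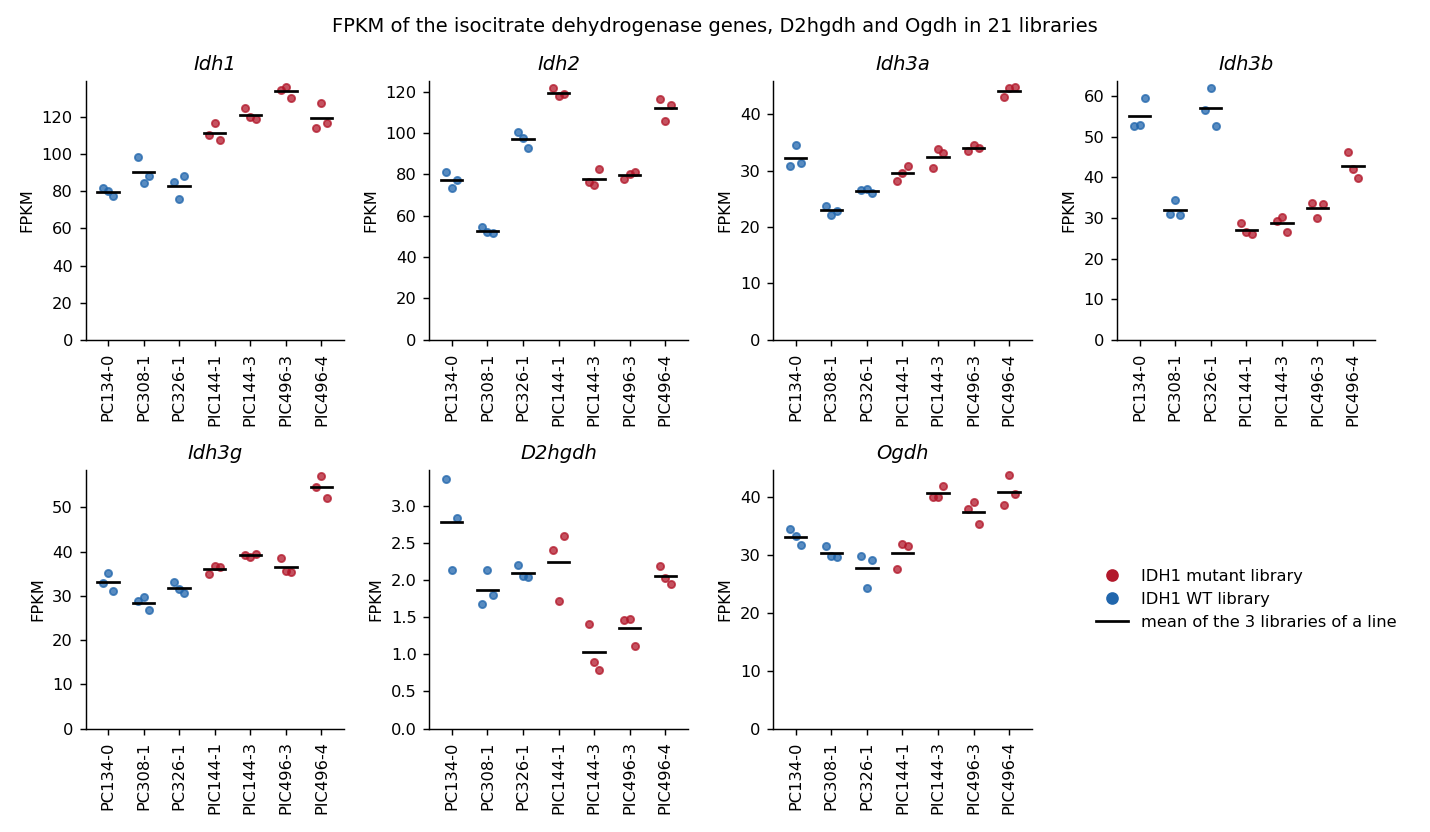
FPKM of the 7 genes in each of 21 libraries (points, red for IDH1 mutant and blue for IDH1 WT lines), with the mean of the 3 libraries of each line as a bar and the vertical axes starting at 0. The Idh1 points of the IDH1 mutant lines, 107.8 FPKM or more, all lie above those of the IDH1 WT lines, and Idh3g has 1 high line, PIC496-4.

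The first comparison asks whether the RNA of these enzymes differs between the genotypes. A line was 1 replicate, with the mean FPKM of its libraries as its value. Differences are on the log2(FPKM + 0.5) scale, which understates the change of low genes, and were tested with limma and Benjamini-Hochberg adjustment over all 13379 genes. None of the 7 genes passed an adjusted p of 0.05 in this fit of line means, in which 0.12% of all genes passed. At an unadjusted p under 0.05 there was 1, Idh1, where 12.8% of all genes lay. The difference was positive for 5 of the 7 (50.8% of all genes) and negative for Idh3b and D2hgdh, with a median of 0.36 over the 7 and 0.0072 over all genes. Idh1 and Idh3g were higher in the IDH1 mutant lines without overlap, 2 of 7 genes against 6.82% of all genes, and none was lower without overlap (6.43% of all genes).

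**Figure D2:**
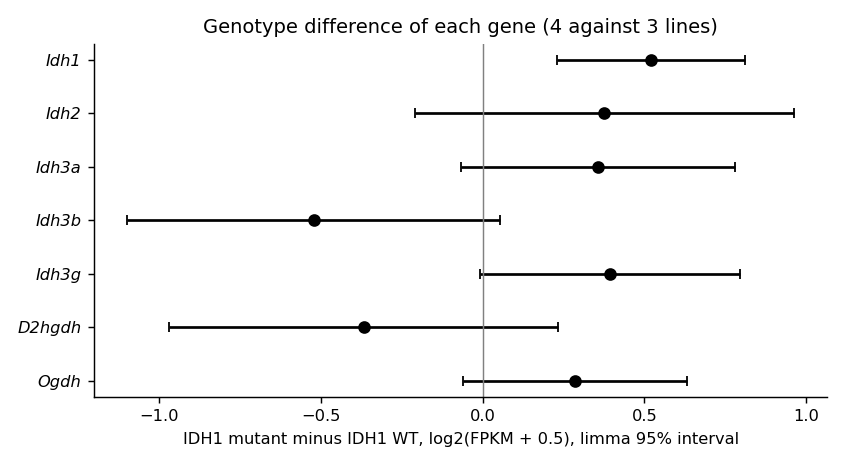
Difference between IDH1 mutant (4) and IDH1 WT (3) lines for each gene on the log2(FPKM + 0.5) scale, with the limma 95% interval as the bar and no difference as the grey line. The interval of Idh1 runs from 0.23 to 0.81, and those of the other genes include 0.

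Idh1, the gene of the cytosolic NADP-linked enzyme (ENSMUSG00000025950), lies on chromosome 1 from 65158616 to 65186500 in GRCm38, on the minus strand, with 13 exon blocks. Its 3 libraries read 82.0, 79.9 and 77.5 FPKM in PC134-0, 98.6, 84.6 and 88.3 FPKM in PC308-1, and 84.9, 75.9 and 88.1 FPKM in PC326-1. The IDH1 mutant lines gave 110.4, 116.5 and 107.8 FPKM (PIC144-1), 124.8, 119.9 and 118.7 FPKM (PIC144-3), 134.5, 136.3 and 130.4 FPKM (PIC496-3), and 114.0, 127.7 and 116.8 FPKM (PIC496-4). The lowest library of an IDH1 mutant line therefore lay above the highest of an IDH1 WT line. The means were 121.5 ± 9.18 FPKM (SD, n = 4 lines) and 84.4 ± 5.48 FPKM (n = 3), a log2 difference of 0.52 (SE 0.125), or 1.43-fold on that scale with a 95% interval from 1.17 to 1.75. The limma p was 0.00336 and the adjusted p 0.244, and the exact two-sided permutation p over the 35 splits of the lines was 0.0286, the smallest this design gives. The call changed with the model: limma on the 21 libraries with the line as a random effect gave an adjusted p of 0.0215, and 0.0359 with the replicate number as a block. Those fits called 552 and 440 genes of the table. They use a single within-line correlation for all genes and take degrees of freedom from libraries. Genotype varies only among lines, so they can overstate the replication. The adjusted p of Idh1 ranged up to 0.835 over 24 alternatives.

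In the order of the lines by Idh1, the single step between neighbours that passed the limma test on libraries was from PC308-1, the highest IDH1 WT line, to PIC144-1, the lowest IDH1 mutant line (log2 gap 0.30, limma adjusted p = 0.000514). Between PC308-1 and PIC144-1, 60.4% of all genes passed that test, and over all genes and all 21 pairs of lines 54.1% of tests passed. Idh1 differed in 15 of the 21 pairs. Such tests on libraries measure the spread among the 3 libraries of a line. The labels number these as biological replicates but do not say that they came from separate cultures, so that spread may be technical. Within the genotypes, Idh1 differed among the 4 IDH1 mutant lines (limma F test adjusted p = 0.00963), as did 80.7% of all genes, and the test among the 3 IDH1 WT lines, passed by 61.4% of all genes, gave 0.0582. The former call was lost without replicate 1 (0.112), without replicate 3 (0.134) and after rescaling to TPM (0.378), and the latter test passed without replicate 2 (0.0213) and without replicate 2 of PIC496-4 alone (0.0413).

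Idh2, the mitochondrial NADP-linked enzyme (ENSMUSG00000030541), lies on chromosome 7 from 80094846 to 80115392. By line it stood at 77.3 ± 3.79 FPKM in PC134-0, 52.8 ± 1.43 FPKM in PC308-1 and 96.9 ± 3.92 FPKM in PC326-1 (SD, n = 3 libraries). The IDH1 mutant lines stood at 119.4 ± 1.94 (PIC144-1), 77.9 ± 4.20 (PIC144-3), 79.8 ± 1.78 (PIC496-3) and 111.9 ± 5.56 FPKM (PIC496-4). The genotypes overlapped, and the high lines PIC144-1 and PIC496-4 bear different numbers. The log2 difference of 0.38 (SE 0.253, limma adjusted p = 0.537, exact permutation p = 0.229) did not pass, and it was 0.14 without PC308-1 and 0.57 without PC326-1. Gm45203, a gene model within Idh2 on the same strand over 1831 bases, covers 0 of the 2588 exon bases of Idh2 and stood at 0.0322 to 0.176 FPKM. Idh2 differed among the IDH1 mutant lines (limma F test adjusted p = 2.37e-09) and among the IDH1 WT lines (3.91e-10). Of its 6 steps between neighbouring lines 3 passed: PC308-1 lay below PC134-0, PC326-1 above PIC496-3, and PIC496-4 above PC326-1.

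The ratio of Idh1 to Idh2 FPKM needs no scaling between libraries. It was 1.03 in PC134-0, 1.71 in PC308-1 and 0.856 in PC326-1, and 0.934 in PIC144-1, 1.56 in PIC144-3, 1.68 in PIC496-3 and 1.07 in PIC496-4. Both genotypes thus held lines with about equal FPKM of both genes and lines with higher FPKM of Idh1. The log2 difference between genotypes was 0.15 (exact permutation p = 0.714, two-sided, 4 against 3 lines), and without PC326-1 it was -0.067. The sum of both genes was 143.3 to 179.9 FPKM over the IDH1 WT lines and 199 to 231.4 FPKM over the mutant ones.

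Idh3a encodes the catalytic subunit of the NAD-linked enzyme (ENSMUSG00000032279, chromosome 9 from 54586334 to 54604661). Its level was 32.3 ± 2.02 FPKM in PC134-0, 22.9 ± 0.801 FPKM in PC308-1 and 26.4 ± 0.409 FPKM in PC326-1 (SD, n = 3 libraries). It was 29.5 ± 1.37 in PIC144-1, 32.5 ± 1.76 in PIC144-3, 34.0 ± 0.490 in PIC496-3 and 44.1 ± 0.998 FPKM in PIC496-4. PC134-0 lay within the range of the IDH1 mutant lines, and PIC496-4 stood above all others. The log2 difference was 0.36 (SE 0.183, limma adjusted p = 0.441, exact permutation p = 0.143), and 0.20 without both PIC496 lines. Idh3a had 18 of 21 pairs of lines that differed in the limma test on libraries, the most of the 7 genes. Over all genes and pairs, 54.1% of such tests passed.

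Idh3g encodes another subunit of that enzyme (ENSMUSG00000002010, chromosome X from 73778963 to 73786897). Its libraries read 32.9, 35.2 and 31.1 FPKM in PC134-0, 28.9, 29.7 and 26.8 FPKM in PC308-1, and 33.1, 31.6 and 30.7 FPKM in PC326-1. They read 35.01, 36.7 and 36.6 FPKM in PIC144-1, 39.2, 38.8 and 39.4 FPKM in PIC144-3, 38.5, 35.7 and 35.4 FPKM in PIC496-3, and 54.5, 57.0 and 52.1 FPKM in PIC496-4. The line means did not overlap between genotypes, but single libraries of PC134-0 and PIC144-1 did, and the step between these lines did not pass (limma adjusted p = 0.0584). The means were 41.6 ± 8.74 FPKM (SD, n = 4) and 31.1 ± 2.37 FPKM (n = 3), a log2 difference of 0.39 (SE 0.174, limma adjusted p = 0.395). The exact permutation p was 0.0571, and the difference was 0.26 without PIC496-4.

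Idh3b, a further subunit of the same enzyme (ENSMUSG00000027406, chromosome 2 from 130279309 to 130284547), had a negative difference, unlike Idh3a and Idh3g. Its libraries read 52.5, 52.8 and 59.6 FPKM in PC134-0, 31.0, 34.4 and 30.8 FPKM in PC308-1, and 56.4, 61.9 and 52.6 FPKM in PC326-1. They read 28.7, 26.6 and 26.1 FPKM in PIC144-1, 29.1, 30.2 and 26.6 FPKM in PIC144-3, 33.7, 29.9 and 33.3 FPKM in PIC496-3, and 46.1, 42.1 and 39.8 FPKM in PIC496-4. PC308-1 lay among the IDH1 mutant lines, so the genotypes overlapped. The means were 32.7 ± 6.99 FPKM (SD, n = 4) and 48.0 ± 13.9 FPKM (n = 3), a log2 difference of -0.52 (SE 0.248, limma adjusted p = 0.417, exact permutation p = 0.171), and -0.79 without PC308-1. The last 5 bases of Idh3b overlap Nop56 on the other strand, a small part of its 3422 exon bases.

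The ratio of Idh3b to Idh3a separated the genotypes. It was looked at after its values were seen and so is given without a test. How often ratios of other pairs of genes separate these lines was not computed. Idh3b stood at 1.70 times Idh3a in PC134-0, 1.40 times in PC308-1 and 2.16 times in PC326-1, from FPKM of line means. In PIC144-1, PIC144-3, PIC496-3 and PIC496-4 the ratio was 0.921, 0.883, 0.951 and 0.967. The highest single library of an IDH1 mutant line had 1.07 and the lowest of an IDH1 WT line 1.30. Of the summed Idh3a, Idh3b and Idh3g FPKM, Idh3b made up 38.4% to 49.5% in the IDH1 WT lines and 28.6% to 31.4% in the IDH1 mutant lines. Idh3g to Idh3a, by contrast, ran from 1.03 to 1.24 in the IDH1 WT lines and from 1.08 to 1.23 in the IDH1 mutant lines. The summed level itself overlapped, at 83.5 to 120.3 and 92.7 to 141.4 FPKM. The ratio of Idh1 to D2hgdh also separated the genotypes by line means, with at most 48.4 in an IDH1 WT line and at least 49.9 in an IDH1 mutant line. Its single libraries overlapped.

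**Figure D3:**
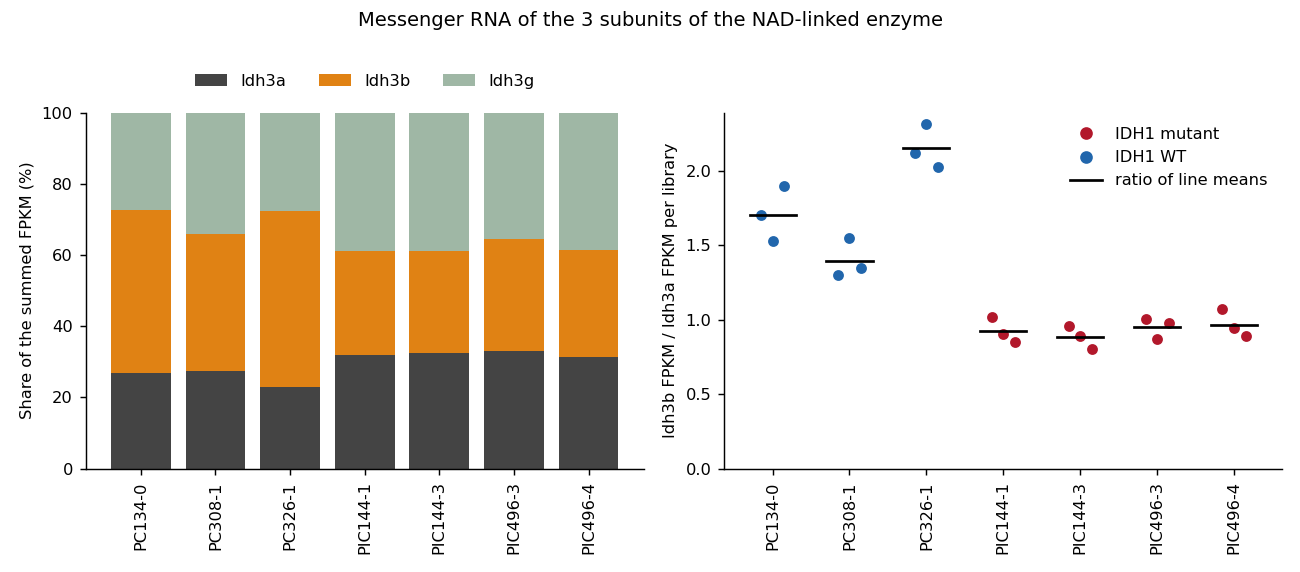
Left, the share of each subunit gene in the summed FPKM of Idh3a, Idh3b and Idh3g per line, in percent, and right, Idh3b divided by Idh3a in each library (points), with the ratio of line means as a bar. The 12 libraries of IDH1 mutant lines reach at most 1.07, and those of the IDH1 WT lines start at 1.30.

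The genes around Idh3b on chromosome 2 also had mostly negative differences, described here without a test. Of 95 tested genes that start within 5 Mb of it, 8 had a positive difference, and their median log2 difference was -0.38, with 36 at or below that of Idh3b. By line, their median deviation from the mean of the 7 lines was 0.34 in PC134-0 and 0.31 in PC326-1, the lines in which Idh3b was high (0.54 and 0.59), and -0.049 in PC308-1, where Idh3b was at -0.23. In the IDH1 mutant lines the neighbours stood at -0.15 in PIC144-1 (Idh3b at -0.47), -0.41 in PIC144-3 (-0.39), -0.066 in PIC496-3 (-0.22) and -0.066 in PIC496-4 (0.18). The neighbours in the IDH1 WT line PC308-1 were thus close to those in both PIC496 lines. The part of this stretch in the Idh3b result was not tested.

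Genes beside the other members had medians nearer 0. For Idh1 the median was 0.13 over 31 genes, of which 21 had a positive difference (67.7%, against 50.8% of all genes). A difference as large as that of Idh1 or larger was found in 4 of them. For Idh3g the median was -0.043 over 67 genes, of which 29 had a positive difference. In PIC144-1 the genes beside Idh1 deviated by 0.16, more than Idh1 itself (0.10), while in PIC496-3, the line highest in Idh1 (0.36), they stood at -0.022. In PIC496-4, where Idh3g deviated by 0.58, the genes beside it stood at -0.034. The medians were -0.063 beside Idh2 (70 genes), 0.081 beside Idh3a (86), 0.082 beside D2hgdh (48) and 0.055 beside Ogdh (79).

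**Figure D4:**
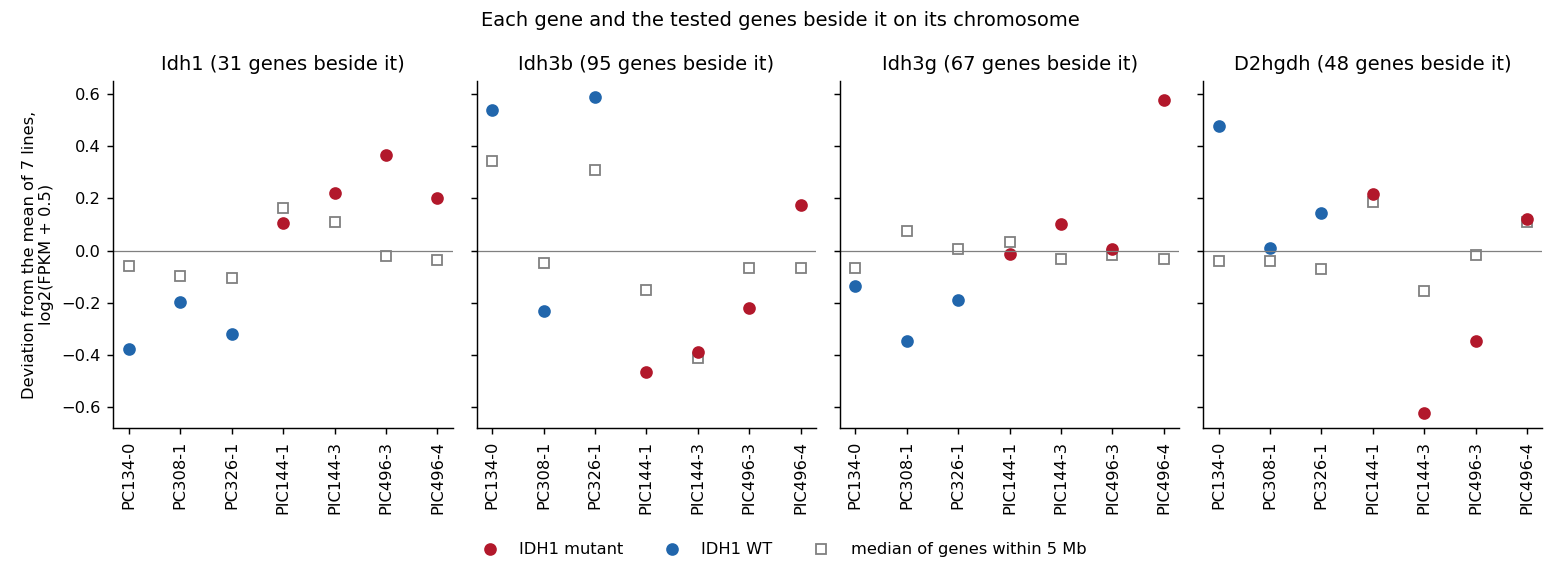
Deviation of Idh1, Idh3b, Idh3g and D2hgdh in each line from the mean of 7 lines on the log2(FPKM + 0.5) scale (filled points), with the median of the tested genes within 5 Mb (open squares). The squares follow Idh3b in PC134-0 and PC326-1 (0.34 and 0.31) and stay near 0 where Idh3g is highest (-0.034 in PIC496-4).

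The genes that start head to head with Idh1 and Idh3g were looked at after the values were seen. Pikfyve stood at 6.12 ± 1.19 FPKM over the mutant lines (SD, n = 4) and 4.73 ± 0.376 FPKM over the WT lines (n = 3), with overlap (log2 difference 0.32, limma adjusted p = 0.458). Its highest line was PIC144-1, at 7.69 FPKM, which was the lowest IDH1 mutant line for Idh1. Ssr4 stood at 19.1 ± 2.53 and 14.2 ± 0.276 FPKM without overlap (log2 difference 0.40, limma adjusted p = 0.346, exact permutation p = 0.0571). Like Idh3g it was highest in PIC496-4, at 21.3 FPKM, but PIC144-3 and PIC496-3 were close to that, at 19.9 and 19.6 FPKM.

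Ogdh (ENSMUSG00000020456, chromosome 11 from 6291633 to 6356642) stood at 33.1 ± 1.43 FPKM in PC134-0, 30.3 ± 1.03 FPKM in PC308-1 and 27.8 ± 2.99 FPKM in PC326-1 (SD, n = 3 libraries). It stood at 30.3 ± 2.40 in PIC144-1, 40.6 ± 1.10 in PIC144-3, 37.4 ± 1.91 in PIC496-3 and 40.9 ± 2.60 FPKM in PIC496-4. PIC144-1 lay among the IDH1 WT lines and the other IDH1 mutant lines above them. The log2 difference was 0.29 (SE 0.150, limma adjusted p = 0.447, exact permutation p = 0.114). None of the 6 steps between neighbouring lines passed, although 12 of the 21 pairs of lines differed, where 54.1% of such tests passed over all genes and pairs.

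D2hgdh, the gene of the enzyme that clears D-2-hydroxyglutarate (ENSMUSG00000073609, chromosome 1 from 93824909 to 93852348), read 3.36, 2.14 and 2.83 FPKM in PC134-0, 1.67, 2.14 and 1.80 FPKM in PC308-1, and 2.19, 2.05 and 2.04 FPKM in PC326-1. It read 2.41, 1.71 and 2.59 FPKM in PIC144-1, 1.40, 0.892 and 0.793 FPKM in PIC144-3, 1.46, 1.47 and 1.12 FPKM in PIC496-3, and 2.19, 2.02 and 1.95 FPKM in PIC496-4. PIC144-3 and PIC496-3 were the lowest lines, and PIC144-1 and PIC496-4 lay within the IDH1 WT range. The fewest fragments, 64, were in the PIC144-3 library at 0.892 FPKM, whose exact 95% Poisson interval of 0.687 to 1.14 FPKM covers counting error only. The means were 1.67 ± 0.572 FPKM (SD, n = 4) and 2.25 ± 0.471 FPKM (n = 3), a log2 difference of -0.37 (SE 0.259, limma adjusted p = 0.554, exact permutation p = 0.257), and -0.21 without PIC144-3 or -0.23 without PC134-0. The 95% interval of the difference over all 7 lines, from -0.97 to 0.23, leaves room for either sign. D2hgdh differed among the IDH1 mutant lines (limma F test adjusted p = 0.000199), but no step between neighbouring lines passed.

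Idh1 stood at 28.7, 48.4 and 39.6 times D2hgdh in PC134-0, PC308-1 and PC326-1. In PIC144-1, PIC144-3, PIC496-3 and PIC496-4 the ratio was 49.9, 117.7, 99.0 and 58.1. The IDH1 WT line PC308-1 and the IDH1 mutant line PIC144-1 were next to each other, and both widest ratios were in the lines with the least D2hgdh.

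Among lines of 1 genotype, all 7 genes differed between the IDH1 mutant lines (80.7% of all genes) and 6 between the IDH1 WT lines (61.4% of all genes) by the limma F test. A member that differed was therefore like most genes of the table. Among the IDH1 WT lines the F test was strongest for Idh2, followed by Idh3b (adjusted p = 3.88e-08) and Idh3a (1.2e-06). The weaker calls there did not hold throughout. Idh3g (0.00736) was lost without replicate 1 (0.0994), without replicate 3 (0.0632) and after rescaling to TPM (0.0541). D2hgdh (0.0467) was lost without replicate 1 (0.409), without replicate 3 (0.253), without replicate 2 of PIC496-4 alone (0.0524) and with a pseudocount of 0.1 (0.0638). Ogdh (0.0201) was lost without replicate 1, 2 or 3 (0.0697, 0.162 and 0.0642).

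Other enzymes around isocitrate and 2-oxoglutarate were given by lists, chosen like the members with earlier results known. Of 47 genes 42 were tested, and none passed the limma adjusted p of 0.05, with a smallest value of 0.111. The difference was positive for 33 and negative for 9, where 50.8% of all genes were positive, with a median of 0.20. At an unadjusted p under 0.05, 5 were higher and 1 lower (6.09% and 6.7% of all genes), and 7 were higher and 1 lower without overlap (6.82% and 6.43% of all genes). Those at an unadjusted p under 0.05 were Mdh2, Suclg1, Pgd, Nadk and Me2, higher, and Ldhb, lower. Me3, Nnt, Slc25a21, Slc13a2 and Slc13a5 were too low to test.

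The 13 other citric acid cycle genes all had positive differences (50.8% of all genes), with a median of 0.20. Mdh2, mitochondrial malate dehydrogenase, stood at 108.4 ± 18.9 FPKM over the mutant lines (SD, n = 4) and 76.9 ± 3.92 FPKM over the WT lines (n = 3), a log2 difference of 0.48 (limma adjusted p = 0.328, exact permutation p = 0.0286). Suclg1, a succinyl-CoA ligase subunit, had 0.44 (limma adjusted p = 0.375), and Cs, citrate synthase, the most abundant by the mean over all 7 lines, stood at 107.3 and 90.1 FPKM. Mdh2, Aco1 and Fh1 were higher without overlap, 3 of 13 genes against 6.82% of all genes, and Aco1 and Fh1 are named after their values were seen.

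The 5 genes listed with Ogdh include relatives of it as well as partners in its complex. They had 4 negative differences and a median of -0.13, which are not values for the complex alone. Dlst, the next subunit of the complex, had 0.49 and Dhtkd1, a relative of Ogdh, -0.65, with limma adjusted p of 0.540 and 0.462. Dld, the shared last subunit and the most abundant, stood at 38.5 ± 9.62 and 46.4 ± 26.9 FPKM.

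The 8 other genes of 2-hydroxyglutarate and its electron acceptors had 5 positive and 3 negative differences and a median of 0.079. Ldhb, a lactate dehydrogenase subunit gene, stood at 59.3 ± 24.3 FPKM (mutant) and 179.3 ± 56.7 FPKM (WT) without overlap, a log2 difference of -1.62 (SE 0.331, limma adjusted p = 0.201). Ldha, the gene of the other main subunit, was the most abundant, at 1116 ± 303 and 888 ± 74.8 FPKM.

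Of the 14 other genes that make NADPH or NADP 12 were tested, 10 with positive differences, and the median was 0.34. Pgd, of the pentose phosphate pathway, stood at 25.5 ± 2.36 and 13.9 ± 1.56 FPKM (log2 difference 0.85, limma adjusted p = 0.111). Nadk, NAD kinase, stood at 51.9 ± 5.57 and 37.8 ± 2.89 FPKM (0.45, limma adjusted p = 0.292), and Me1, cytosolic malic enzyme and the most abundant, at 77.7 ± 34.0 and 132.6 ± 36.8 FPKM (-0.84, limma adjusted p = 0.397). Nnt, the mitochondrial transhydrogenase gene, stood at 0.0553 and 0.0726 FPKM. The 4 tested genes of the list of citrate, 2-oxoglutarate and related carriers had positive differences with a median of 0.13. Slc25a1, the citrate carrier, was the most abundant, at 121.1 and 117.7 FPKM. Slc25a11, the 2-oxoglutarate carrier, and Slc25a10, a dicarboxylate carrier, had 0.25 and 0.19 (limma adjusted p = 0.458 and 0.703).

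Across the 7 lines, Idh3a and Idh3g had the most similar pattern of any pair of the 7 genes (Pearson r = 0.93 of log2(FPKM + 0.5), n = 7 lines). Idh3b, the third subunit gene, had r of 0.084 with Idh3a and -0.052 with Idh3g. Within a genotype its values were higher: r with Idh3a was 0.99 over the 4 IDH1 mutant and 0.78 over the 3 IDH1 WT lines, and r with Idh3g was 0.91 and 0.95. Between Idh3a and Idh3g the within-genotype values were 0.95 and 0.93. These values describe 3 to 7 points, which share their libraries between genes.

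Among 10724 genes with a mean of at least 1 FPKM, the pattern over the 7 lines most like that of Idh1 was that of Acadm (Pearson r = 0.99), followed by Krt10 (0.97) and Pgap3 (0.96). Nearest to Idh2 were Sssca1 (0.99), Mllt1 (0.97) and Dph2 (0.96). For Idh3a they were Trim59 (0.97), Gusb (0.97) and Grpel1 (0.96), and for Idh3g Bri3bp (0.99), Zfp959 (0.98) and Mdh2 (0.98). Idh3b was most like Haus8, Fech and Atp9a (0.98 each), of which Atp9a is also on chromosome 2. D2hgdh was most like Bivm (0.99), Htatip2 (0.98) and Dera (0.98), and Ogdh like Atp1b3 (0.99), Ccnf (0.97) and Als2cl (0.97). With 7 points and so many genes, high values are common: 5 to 22 genes per member reached 0.95.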

How the data were processed

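Polyadenylated RNA of 21 libraries was sequenced as strand-specific read pairs, per the labels' protocols. The submitters' processing notes name HISAT2 and mm39, while how fragments were counted, with which annotation and whether by strand, is not given in the sources used here. Values are FPKM per gene, as deposited by the authors. Gene coordinates in the table are those of GRCm38: 53499 of 54532 genes had the same position in GENCODE M21, and coordinates are given so. FPKM times length gave whole fragments (tolerance 0.05) for all values under 1000 fragments. The library size that the values imply was 0.957 to 1.05 times the summed fragments of a library. No library was a duplicate, since those of a line differed beyond sampling noise, with a chi-square per gene of 3.79 to 26.9.

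Genes that reached 0.5 FPKM as the mean of a line in 3 or more lines were tested in R 4.3.3 with limma 3.58.1 (eBayes with trend and robust) on log2(FPKM + 0.5), with Benjamini-Hochberg adjusted p under 0.05 as the threshold. The genotype was tested over line means, with a two-sided exact permutation per gene, and differences among lines over libraries.

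The members and gene lists were chosen with earlier results of these data known. Named were the 7 members, of each list the most abundant gene and the 2 with the smallest p, and the 3 genes most like each member, except that 1 gene this rule names is not reported here. Aco1, Fh1, Me2, Nnt and the other untested genes, Pikfyve, Ssr4 and Nop56 and the Idh3b to Idh3a ratio were picked after seeing their values. Alternatives were pseudocounts of 0.1 and 1, no filter or a mean FPKM of at least 2, TPM, median-of-ratios and quantile scaling, plain eBayes, a random effect of the line with and without a replicate block, averaging lines that share a number, limma voom on recovered fragments, windows of 2 and 10 Mb, and leaving out each line or replicate. Leaving out both PIC496 lines, or replicate 2 of PIC496-4, was added after seeing the data.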

Additional observations from a re-analysis of the deposited data

Results flagged for a closer look

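Idh3g in PIC496-4 stood apart from the other IDH1 mutant lines: its gap to the next line, 54.5 against 39.1 FPKM, was 0.835 of the range over the 4 lines, just above the 95% limit of Dixon's test for 4 values. Chance flags about 1 in 20 groups. The groups screened were the IDH1 mutant lines for each member, for the Idh1 to Idh2 ratio, and for Pikfyve and Ssr4. No other of these was flagged, and with several groups screened a single flag by chance is not rare. The 3 libraries of PIC496-4 read 54.5, 57.0 and 52.1 FPKM, so the line and not 1 library was high. PIC496-4 was also the highest line for Idh3a and the highest IDH1 mutant line for Idh3b, without reaching that limit.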

How the results depend on the processing

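The sign of the genotype difference was kept by 6 of the genes in 24 alternatives, and by D2hgdh in the 23 that tested it, since a mean FPKM of at least 2 left it out. Among these, median-of-ratios scaling could change little. Its factors were 0.996 to 1.003 over the libraries, so the deposited values were already on that scale. The log2 difference ranged from 0.41 to 0.57 for Idh1, 0.14 to 0.57 for Idh2, 0.20 to 0.48 for Idh3a, -0.79 to -0.38 for Idh3b, 0.26 to 0.45 for Idh3g, -0.49 to -0.21 for D2hgdh and 0.21 to 0.38 for Ogdh. Idh1 passed in 2 of them, the limma fits of 21 libraries with the line as a random effect (0.52, adjusted p = 0.0215) and with the replicate block added (0.52, adjusted p = 0.0359). Both can overstate the replication, since genotype varies only among lines. The number of genes in the table that passed was 16 as reported, 552 and 440 in those 2 fits, 3 with no filter, 8 with a mean FPKM of at least 2, 4 with lines of a shared number averaged, 0 with limma voom (1643 at an unadjusted p under 0.05) and 4 without both PIC496 lines. Leaving out 1 line or replicate gave 0 to 29: 0 without PC134-0 (693 at an unadjusted limma p under 0.05) or PC326-1 (923), 29 without PC308-1, 5 without PIC496-4, 9 without PIC144-1 and 10 without PIC496-3. The cause was not tested. The log2 difference of the Idh1 to Idh2 ratio ranged from -0.067 (without PC326-1) to 0.43 in these runs. Replicate numbers were not taken as pairs, since none of 21 pairs of lines had every same-number correlation above 0.1 (median 0.013). PIC496-4 did share some deviation with libraries of the same number. Its mean same-number correlation was 0.16 with PC134-0, 0.15 with PC308-1, 0.16 with PIC144-1 and 0.11 with PIC144-3. It was -0.067 with PC326-1 and -0.0095 with PIC496-3. Depth limits D2hgdh most, with 64 to 243 fragments per library.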
